A study of Mus musculus with 4 samples.

Results

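Mature osteoblasts, the bone-forming cells that secrete and mineralize the collagen matrix, made up 1152 of the 24084 cells that passed the quality filter, out of 27907 barcodes in 4 single-cell RNA-seq libraries of mouse endosteal bone marrow. They were chosen by their own counts of unique molecular identifiers (UMIs, 1 per captured mRNA molecule): the osteocalcin genes Bglap and Bglap2 together at 100 or more per 10000 UMIs, at least 2 UMIs of Ifitm5, fewer than 20 per 10000 of Dmp1 and fewer than 8 of Adipoq, and no UMI of the leukocyte gene Ptprc. Because these values selected the cells, levels of these genes, and differences between the gated cells and other gated cells, are given as descriptions without a test. The gate held 222, 373, 267 and 290 cells in the libraries of mice aged 1, 1.5, 3 and 16 months, and values below follow that order of age unless stated otherwise.

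All mice were male Col2:Td animals of the B6SJL/F1 strain, in which Cre driven by a Col2 promoter turns on the red fluorescent reporter Td. Periosteum and central marrow were removed, cells were released from metaphyseal bone fragments by protease digestion, and the 1% of cells with the strongest Td signal were sorted, or the Td+ cells where their peak was distinct. No group was without the reporter, so every osteoblast described here descends from the Td+ gate. Each age is 1 library from pooled mice (2, 3, 3 and 3 animals), so no spread between animals could be measured and no test between ages was possible; intervals below cover counting error only. Td transcripts in the osteoblasts (tomato in the gene tables) measured 3182, 3691, 3429 and 4301 CPM, the summed counts of the class scaled so that every library has the same total.

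Osteoblasts arise from mesenchymal progenitors under the control of the transcription factors RUNX2 and SP7, lay down type I collagen, and then either become bone-lining cells, die or are buried in the matrix as osteocytes. Osteocalcin is a small secreted protein that binds mineral after vitamin K-dependent carboxylation. IFITM5 (also named BRIL) is a membrane protein found mainly in mineralizing osteoblasts, and mutations of its human gene cause a form of brittle bone disease. Dmp1, Phex, Mepe and Sost mark the step to osteocytes, whereas Aspn, Postn and Tnn mark earlier progenitors.

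The sequences just upstream of the 2 genes that defined the gate are shown, because Ifitm5 and osteocalcin were required together and a RUNX core motif, ACCACA, is a known feature of osteocalcin promoters. Both are RefSeq sequences of the GRCm38.p6 build on the minus strand, 200 bases each, from 250 to 51 bases before the RefSeq start of the gene, 5′ to 3′; capitals mark the motif. Ifitm5 (chr7:140948958-140950291) is shown for chr7:140950294-140950493, and Bglap (chr3:88383501-88384464) for chr3:88384517-88384716.
Ifitm5: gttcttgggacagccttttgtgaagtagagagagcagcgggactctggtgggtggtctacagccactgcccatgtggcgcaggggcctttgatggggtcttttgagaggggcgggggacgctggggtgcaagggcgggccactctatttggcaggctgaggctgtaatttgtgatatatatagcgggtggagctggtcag
Bglap: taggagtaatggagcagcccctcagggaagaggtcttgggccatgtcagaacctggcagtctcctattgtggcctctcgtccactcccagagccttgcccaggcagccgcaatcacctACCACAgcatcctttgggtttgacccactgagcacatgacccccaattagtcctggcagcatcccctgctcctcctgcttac
ACCACA, or its reverse complement TGTGGT, occurred 1 time in the Bglap window, at 132 to 127 bases before the start, and 0 times in the Ifitm5 window. The same search found it in 11.56% of 32851 such windows, and the longer form AACCACA, which contains it, in 3.498%. A match of these letters is a description and not a binding site. Bglap2 (chr3:88377736-88378699) and Bglap3 (chr3:88368616-88372743) lie beside Bglap in the same orientation.

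Osteoblasts were 2.67%, 6.84%, 6.39% and 4.72% of the cells that passed the filter. Among the cells caught by 5 mesenchymal gates (osteoblasts, late progenitors, trabecular osteogenic cells, Adipoq stromal cells and the 1 to 4 osteocytes per library that carried Mepe), their share was 29.5% (95% Clopper-Pearson interval 26.3 to 32.9) of 752 cells, 17.6% (16.0 to 19.2) of 2125, 32.5% (29.3 to 35.8) of 822 and 8.46% (7.55 to 9.44) of 3429. The share was thus lowest in the 16-month library, where 2920 of the gated cells were Adipoq stromal cells against 170, 1192 and 354 in the younger libraries. Without the stromal cells, an alternative chosen after the data were seen, the order changed: the share was 38.1% (34.2 to 42.2) of 582 cells, 40.0% (36.8 to 43.2) of 933, 57.1% (52.4 to 61.6) of 468 and 57.0% (52.5 to 61.3) of 509. The sort fixed how many cells of each kind entered a library, and a share in sorted cells does not give the number of osteoblasts in bone.

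Osteocalcin alone admitted more cells than the full gate. After the filter, 368, 638, 547 and 426 cells had 100 or more osteocalcin UMIs per 10000, and of these 320, 442, 307 and 309 also had at least 2 Ifitm5 UMIs. The Ptprc condition removed 76 further cells at 1 month against 2, 7 and 6 in the other libraries. Just inside the Ifitm5 limit were 6, 23, 21 and 28 cells with exactly 2 UMIs, and just outside were 11, 29, 25 and 16 cells with 1 UMI and enough osteocalcin. A further 24, 142, 190 and 85 cells met every other condition but had no Ifitm5 UMI. In these the progenitor gene Postn measured 3385, 4989, 1804 and 2044 CPM against 102, 187, 75.3 and 66.8 in the osteoblasts, and Car3 133, 130, 108 and 210 against 1977, 3012, 3387 and 1928. Smpd3 varied more between libraries in them, at 177, 144, 549 and 76.4 CPM against 399, 378, 750 and 617. On the osteocalcin side, 14, 17, 10 and 18 osteoblasts had 100 to 150 per 10000, and 27, 23, 14 and 18 cells that met every other condition had 50 to 100.

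**Figure D1:**
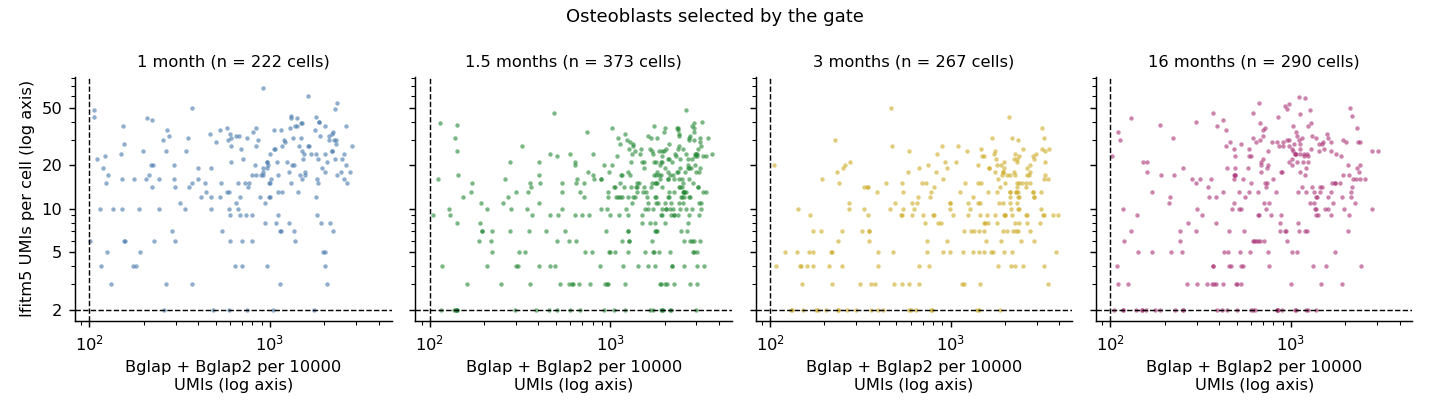
Each point is 1 osteoblast, with Bglap plus Bglap2 per 10000 UMIs (log axis) against its Ifitm5 UMIs (log axis) in the 4 libraries, and dashed lines at the gate's limits of 100 and 2. Most cells lie well inside both limits, with median osteocalcin of 902, 1654, 1424 and 778 per 10000 and median Ifitm5 of 18, 12, 10 and 14 UMIs. These Ifitm5 counts are not levelled for depth, and the 16-month cells were the deepest. Scaled to CPM, summed Ifitm5 was 1141, 826, 976 and 572, lowest at 16 months. After thinning to 3000 UMIs, 9.46%, 13.4%, 9.47% and 25.7% of osteoblasts had no Ifitm5 UMI.

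Osteoblasts were among the deeper cells of every library, with medians of 17223.5, 17013, 11535 and 28376.5 UMIs against 10279.5, 9621, 6264 and 9670 over all passing cells, and with 3184, 3010, 2385 and 4108.5 genes per cell. Summed, they held between 3214656 and 8432083 UMIs per library. The quality filter mattered in 1 library: without it the same gate would have held 224, 388, 275 and 402 cells, and at 16 months 97 of the cells left out exceeded 5% mitochondrial UMIs and 17 exceeded 6000 genes. The 16-month matrix listed 31054 genes and each of the others 27999, of which 26600 were shared, and 4 genes with at least 100 UMIs in each younger library had none in any 16-month cell. Gene annotation, library handling and age cannot be told apart for that library. Between 1 and 61 barcodes were shared by any 2 libraries, and 1 shared barcode belonged to an osteoblast. Markers of other cells were present in unequal amounts. In osteoblasts 9 neutrophil markers summed to 13224, 209, 2344 and 137 CPM, and 6 erythroid markers to 6497, 206, 347 and 973. The sums were 1187, 5359, 1824 and 966 CPM over 11 chondrocyte markers and 411, 953, 478 and 1207 over 12 marrow stromal markers. Over 6 endothelial markers they were at most 19.3. All neutrophil, erythroid and stromal markers were detected in each library's osteoblasts, while Col10a1, Matn1 and Matn3 were at 0 in the 16-month cells. The same 11 chondrocyte markers summed to 799, 8977, 1110 and 45.4 CPM in neutrophils and 349, 4213, 753 and 129 in Adipoq stromal cells. In 16-month osteoblasts Acan, Col9a1, Col9a2, Col9a3 and Ucma measured 1.42, 4.15, 0.237, 0.712 and 0.119 CPM. Col2a1 was not low there: in osteoblasts thinned to 3000 UMIs its mean was 2.03, 8.99, 3.2 and 2.5 UMIs. How much of the marker sums is RNA of other cells, and its part in the results below, was not tested. The neutrophil gate, which takes cells with S100a8 and S100a9 together at 200 or more per 10000, also held 4, 0, 1 and 0 of the osteoblasts.

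Osteocalcin filled a large part of each cell's mRNA. Bglap and Bglap2 together were 11.3%, 17.5%, 16.6% and 10.7% of osteoblast UMIs, Col1a1 and Col1a2, the chains of type I collagen, were 9.71%, 12.2%, 9.76% and 15.9%, and the 10 most abundant genes were 29.7%, 38.3%, 36.9% and 36.6%. The osteocalcin share was thus higher at 1.5 and 3 months than at 1 and 16 months, and the collagen share was highest at 16 months. Bglap supplied 65.8%, 66.2%, 66.1% and 67.8% of the pair in osteoblasts but 49.4%, 46.6%, 36.5% and 38.4% in late progenitors; the copies are nearly identical, so reads that the counting assigned to one may come from the other. Bglap itself measured 74113, 115586, 109668 and 72446 CPM in osteoblasts against 926, 1517, 1505 and 1521 in late progenitors, whose gate capped it. In neutrophils (2725, 29, 616 and 356 cells), which do not make osteocalcin, the median cell had 3.72, 13.9, 3.59 and 1.21 per 10000 of Bglap and Bglap2 together. Single cells of that gate reached 1539, 949, 1105 and 279 per 10000, so sums over it, such as the neutrophil CPM given below, can rest on a few cells.

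The cells carried the other defining markers of mature osteoblasts. Col1a1 measured 54589, 65985, 50021 and 83079 CPM in osteoblasts against 15034, 29629, 26347 and 19648 in late progenitors, and 1155, 5156, 894 and 2073 in neutrophils. Car3, a carbonic anhydrase (chr3:14863512-14872523, plus strand), measured 1977, 3012, 3387 and 1928 CPM against 38.6, 103, 9.41 and 9.1. For Car3 the lowest osteoblast value stood above the highest progenitor value. After thinning every cell to 3000 UMIs, which levels the depth, Car3 was detected in 91.9%, 94.1%, 95.1% and 90.3% of osteoblasts and in 5.32%, 10.5%, 3.42% and 1.08% of late progenitors; neutrophils, whose median depth before thinning was 13310, 10433, 6658.5 and 8044 UMIs, gave 4.26%, 17.2%, 4.98% and 3.56%. The progenitor shares were thus near or below this background and the osteoblast shares far above it. Without thinning the osteoblast shares of Car3 were 98.2%, 97.9%, 97.4% and 96.2%. Ibsp, the bone sialoprotein of mineralizing matrix, measured 2103, 2603, 4212 and 3479 CPM in osteoblasts and 1085, 1501, 4091 and 1103 in late progenitors, so the values nearly met at 3 months.

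Osteocyte markers were low in the gated cells, in part because the gate limited Dmp1. Sost, the Wnt inhibitor of osteocytes, measured 0, 2.81, 0.622 and 1.3 CPM, and Mepe, a matrix phosphoglycoprotein, 2.06, 4.37, 11.8 and 16.5. Both genes stayed under 20 CPM in every library, too few UMIs to rank the libraries by them. For comparison, osteocytes were gated by at least 20 Dmp1 UMIs per 10000 and 2 UMIs of Phex, since a first gate that also required Mepe held 1, 4, 4 and 4 cells; the wider gate, chosen after the data were seen, held 27, 72, 31 and 21 cells, of which 0, 7, 3 and 8 also met the trabecular osteogenic gate. In these Dmp1 Phex osteocytes Sost measured 144, 70.4, 65 and 117 CPM and Mepe 14.9, 17.1, 65 and 159.

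**Figure D2:**
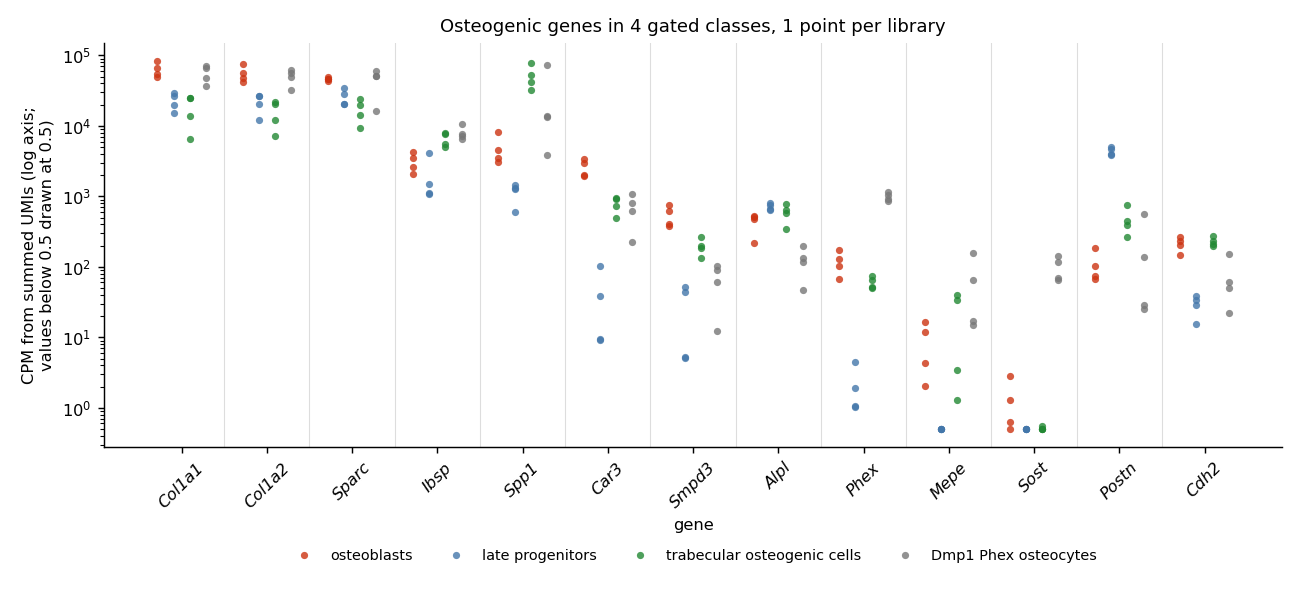
CPM from summed UMIs (log axis, values below 0.5 drawn at 0.5) of 13 genes in osteoblasts, late progenitors, trabecular osteogenic cells and Dmp1 Phex osteocytes, 1 point per library. Car3 and Smpd3 are highest in the osteoblasts of every library, Postn in the late progenitors, and Phex and Sost in the osteocytes, where Phex was part of the gate.

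The first comparison asked what separates mature osteoblasts from the progenitors before them. Late progenitors (301, 468, 150 and 94 cells) were gated by Aspn, Tnn and Ostn, markers of progenitors committed to bone, with osteocalcin below 100 per 10000. A gene was counted when it was at least 2-fold apart in the same direction in each of the 4 libraries, leaving out genes that a gate used. Of 5332 genes, 130 (2.44%) were higher in osteoblasts and 760 (14.3%) were lower. The median gene stood at -0.52 on the log2 scale. With the gate genes, Col1a1 and Col1a2 taken out of the totals this median was -0.14, and the counts became 206 higher and 510 lower.

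Genes of mineral and lipid handling led the osteoblast side. Lipc, a lipase better known from liver (chr9:70798128-70952226), measured 124, 149, 138 and 131 CPM in osteoblasts against 2.57, 2.67, 0 and 0 in late progenitors, a log2 ratio of 5.43 to 5.80 with counts under 3 UMIs set to 3. Smpd3, a sphingomyelinase required for mineralization (chr8:106252548-106337988), measured 399, 378, 750 and 617 CPM against 43.4, 52.2, 5.23 and 5.06. Sgms2, a sphingomyelin synthase, measured 311, 400, 333 and 455 CPM against 40.5, 56.9, 53.3 and 56.6. Both act on sphingomyelin, and both were higher in all 4 libraries. Of the 11 mineralization genes compared, 4 were higher (Phex, Smpd3, Car3 and Slc13a5) and 2 were lower (Enpp1, which makes the inhibitor pyrophosphate, and the phosphate carrier Slc20a2), with a list median of 0.62 against -0.52 over all genes. Phex, an endopeptidase that restrains phosphate loss (chrX:157162075-157415312), measured 66.9, 129, 102 and 171 CPM against 1.93, 4.44, 1.05 and 1.01, and Slc13a5, a citrate transporter, 86.4, 101, 90.8 and 101 against 1.29, 10.2, 3.14 and 3.03. Alpl, the alkaline phosphatase often used to mark osteoblasts, was not among the genes counted: it measured 516, 484, 524 and 221 CPM in osteoblasts and 793, 744, 645 and 652 in late progenitors. Phospho1, another phosphatase of mineralization, stayed between 0.515 and 1.56 CPM in osteoblasts, too few UMIs for a comparison at this depth.

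The matrix list was split. Of 20 bone matrix genes, 3 were higher than in late progenitors (Bglap3, Col11a2 and Col22a1) and 4 were lower (Mgp, Omd, Lum and Fmod), with a median of 0.34. Col22a1, a fibril-associated collagen (chr15:71795795-72034227), measured 214, 230, 297 and 382 CPM in osteoblasts against 1.93, 6.89, 2.09 and 3.03, and Col11a2 929, 1472, 1186 and 1479 against 58.2, 350, 62.7 and 16.2. The 4 lower genes were Mgp, an inhibitor of calcification, and 3 small leucine-rich proteoglycans of collagen fibrils. Lum, one of these, measured 1772, 1812, 1377 and 1099 CPM against 3765, 6163, 7713 and 7031. Col3a1, the collagen of soft connective tissue, measured 246, 579, 110 and 36.1 CPM in osteoblasts against 6826, 13928, 13543 and 9591; neutrophils gave 180, 373, 124 and 27.4, so the osteoblast sums were near those of neutrophils.

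Genes of progenitor identity were low throughout. All 6 late progenitor genes outside the gate were lower (Edil3, Postn, Dkk3, Mfap4, Lrrc15 and Islr), a direction that the progenitor gate favours. Postn, a matricellular protein, had log2 ratios of -5.25, -4.76, -5.96 and -5.89. Ptn (pleiotrophin), a secreted growth factor, measured 83.1, 74.2, 16.8 and 5.1 CPM in osteoblasts against 3021, 2493, 1767 and 1497, and Ogn, a further proteoglycan, 7.98, 18.1, 18.4 and 49.6 against 359, 508, 776 and 2579. The other genes farthest on this side were Pdzrn4, Col8a2, Ecm2, Fndc1, Cilp2 and Prss23, each at most 8.11 CPM in every osteoblast library.

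Among the transcription factors of bone compared, Mef2c and Vdr were higher and Msx1, Zfp521 and Snai2 were lower than in late progenitors. Mef2c measured 362, 381, 504 and 583 CPM against 102, 70.4, 29.3 and 92.1, and Zfp521, a factor of immature cells, 4.89, 6.24, 7.15 and 3.44 against 35.3, 41.5, 48.1 and 59.7. The master factors themselves stayed within 2-fold: Runx2 had log2 ratios of -0.03, -0.16, 0.38 and -0.68, and Sp7 of 0.34, 0.28, 0.99 and 0.90.

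Signalling genes went both ways. Of 19 genes of Wnt, BMP and parathyroid hormone signalling, Dkk1, Bmp3 and Bmp8a were higher and Lrp6, Fzd1, Nog, Igf1, Igfbp5 and Fgfr2 were lower. Bmp3, which dampens BMP signalling, measured 68.2, 106, 132 and 211 CPM in osteoblasts against 2.57, 2, 5.23 and 5.06, whereas Igf1, a growth factor, measured 21.4, 22.1, 7.78 and 7.47 against 455, 404, 471 and 356. Of 6 osteoclast regulators, the receptor gene Lgr4 was higher, and Tnfsf11 (RANKL, which drives osteoclast formation), Il6 and Ccl2 were lower. Tnfsf11 measured 3.6, 17.5, 4.04 and 5.34 CPM in osteoblasts, 29.2, 50.2, 52.3 and 72.8 in late progenitors and 5.03, 46.7, 11.2 and 15 in neutrophils, so the osteoblast sums did not stand above those of neutrophils. Of 13 genes on the junction, adhesion and innervation list, Cdh2 (N-cadherin) and Cdo1 were higher. The integrin genes Itga5, Itga11 and Itgb5 were lower, and the list median was -0.63 against -0.52 over all genes. Cdo1 encodes a cysteine dioxygenase, an enzyme and not an adhesion protein. Cdh2 measured 146, 202, 230 and 267 CPM against 28.9, 33.3, 15.7 and 38.4.

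The general machinery of secretion was not set apart by the 2-fold rule. None of 24 genes of the secretory pathway and unfolded protein response, 16 of the respiratory chain or 11 of handling stress was counted in either direction, and of 22 collagen processing genes only P3h3 and Loxl1 were counted, both lower. The medians of these lists were -0.43, -0.20, -0.50 and -0.01, against -0.52 over all genes. Creb3l1, a factor that drives collagen secretion in osteoblasts, measured 238, 269, 244 and 240 CPM against 103, 218, 231 and 150. Vitamin K genes were also close in level: Ggcx, the carboxylase that acts on osteocalcin, measured 38.8, 39.3, 29.2 and 22.3 CPM against 32.1, 42.2, 28.2 and 11.1, and of 6 such genes only Gas6 was counted, as lower. Of 8 genes of the Ifitm family or known to associate with IFITM5, only the tetraspanin Cd81 was counted, as lower, at 374, 404, 429 and 335 CPM against 989, 1237, 1329 and 875. The median of these 8 genes was -1.04 against -0.52 over all genes, of which 14.3% were counted as lower.

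**Figure D3:**
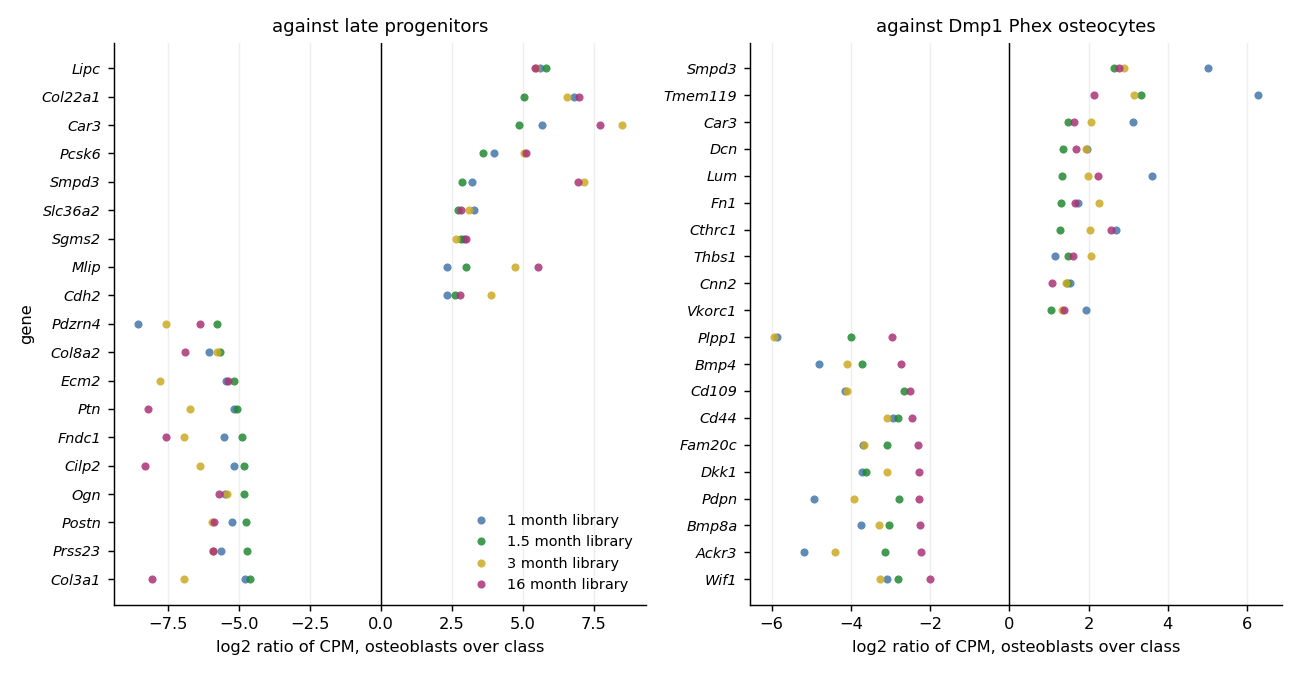
Log2 ratio of CPM in osteoblasts over late progenitors (left) and over Dmp1 Phex osteocytes (right) for the genes farthest apart in each direction, 1 point per library. Every point of a gene lies on the same side of 0, and the left panel reaches from -8.55 for Pdzrn4 to 8.49 for Car3.

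The second comparison asked what separates osteoblasts from the osteocytes they can become. Against the Dmp1 Phex osteocytes, a comparison added after the data were seen, 33 of 4582 genes (0.72%) were at least 2-fold higher in osteoblasts in each library and 163 (3.56%) were lower, with a median gene at -0.17. With the gate genes and type I collagen out of the totals the median was 0.02 and the counts were 55 and 128. Without the 16-month library, where 8 of the 21 osteocytes also met the trabecular gate, 76 genes were higher and 308 lower, and without the 1.5-month library 60 were higher.

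Tmem119, a membrane protein of osteoblasts, measured 578, 409, 467 and 199 CPM in osteoblasts against 7.44, 41.2, 52.8 and 45.3 in osteocytes. Smpd3 had log2 ratios of 5.01, 2.65, 2.88 and 2.77, and Car3 of 3.13, 1.47, 2.07 and 1.63, so these genes were higher in osteoblasts than in both the earlier and the later class. Of 21 bone matrix genes, 6 were higher in osteoblasts (Bglap3, Omd, Cthrc1, Fn1, Dcn and Lum) and 2 were lower (Ibsp and Col24a1). Dcn (decorin) measured 4588, 5001, 5404 and 4926 CPM against 1186, 1961, 1417 and 1526. Type I collagen was close in the 3 younger libraries, where Col1a1 had log2 ratios of -0.26, -0.11 and 0.08, but stood at 1.15 in the 16-month library. Vkorc1, which recycles vitamin K for carboxylation, measured 702, 566, 552 and 323 CPM against 184, 273, 219 and 125 and was the 1 of 6 vitamin K genes counted. None of 23 collagen processing genes was counted, although their median was 0.70 against -0.17 over all genes.

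On the osteocyte side, 11 of 13 osteocyte genes outside the gate were lower in osteoblasts, among them Sost, Mepe, Pdpn, Dkk1 and Irx5. The osteocyte gate and the Dmp1 limit of the osteoblast gate favour that direction. Pdpn (podoplanin), which is needed for osteocyte processes, measured 24.2, 94.3, 34.8 and 26.4 CPM in osteoblasts against 732, 648, 528 and 128 in osteocytes. Plpp1, a lipid phosphatase, measured 33.7, 101, 25.5 and 34 CPM against 1960, 1609, 1559 and 264, and Fam20c, the kinase of secreted matrix phosphoproteins, 46.1, 62.7, 55.4 and 99.3 against 598, 533, 710 and 495. Of 17 signalling genes 6 were lower (Wif1, Dkk1, Sost, Bmp2, Bmp4 and Bmp8a) and none was higher. Wif1, a secreted Wnt inhibitor, measured 140, 151, 115 and 84.1 CPM in osteoblasts against 1181, 1053, 1108 and 336. The decoy receptor Tnfrsf11b (osteoprotegerin), which blocks RANKL, measured 10, 18.2, 11.8 and 13.5 CPM against 81.9, 155, 56.8 and 94.4. Enpp1 and Ank, which raise pyrophosphate outside the cell, were also lower in osteoblasts, with Ank at 15.4, 20.9, 13.7 and 26.7 CPM against 189, 83.5, 110 and 264.

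Some genes placed osteoblasts between progenitors and osteocytes, although none of those named here was 2-fold apart from the osteocytes in every library. Mef2c measured 1059, 963, 901 and 861 CPM in osteocytes, above the 362, 381, 504 and 583 CPM of osteoblasts, which in turn stood above the late progenitors. Pcsk6, a proprotein convertase (chr7:65861734-66050386), measured 128, 130, 103 and 106 CPM in osteoblasts, 8.03, 10.7, 3.14 and 1.01 in late progenitors and 370, 394, 430 and 79.3 in osteocytes, so that the 16-month library broke the order. Bmp3 measured 184, 246, 256 and 329 CPM in osteocytes, above the osteoblasts of the same library each time.

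The last class set beside the osteoblasts was the trabecular osteogenic cells (58, 88, 47 and 121 cells). They were gated by the muscle-type cadherin Cdh15, the adhesion gene Cadm1 and at least 20 per 10000 of Spp1. Cells that met the osteoblast gate or the first osteocyte gate, with Mepe, were left out of this class. Of 4982 genes, 34 (0.682%) were at least 2-fold higher in osteoblasts in each library and 244 (4.9%) were lower, with a median gene at -0.43 on the log2 scale. Of 20 bone matrix genes, 9 were higher in osteoblasts (Col1a1, Col1a2, Bglap3, Serpinf1, Col5a2, Col11a1, Col11a2, Col24a1 and Dcn) and none was lower. Leaving cells of the osteoblast gate out of the trabecular class favours that direction. Col11a1 measured 1852, 2714, 2174 and 2104 CPM against 571, 860, 474 and 201. Of 10 cell cycle genes, 5 were lower in osteoblasts (Top2a, Ccnb2, Birc5, Cenpf and Pcna). All 5 trabecular genes compared were lower (Limch1, Kcnk2, Tnc, Hey1 and Vcam1), a direction that the trabecular gate favours. Csf1, a growth factor of osteoclast precursors, measured 12.1, 21.5, 27.4 and 50 CPM in osteoblasts against 55.4, 96.9, 130 and 251. Cadm1, which that gate required, was present in osteoblasts too: it measured 302, 300, 463 and 284 CPM in osteoblasts, 315, 367, 400 and 326 in trabecular cells and 10.3, 15.1, 7.32 and 13.2 in late progenitors.

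The libraries were then compared by age within the osteoblasts. A gene was counted when 1 library stood at least 2-fold from the mean of the other 3 and its 95% Poisson interval did not meet theirs, among 1869 genes with a mean of at least 50 CPM. At 1 month 41 genes (2.19%) were higher and 65 (3.48%) lower, at 1.5 months 36 (1.93%) and 9 (0.482%), at 3 months 10 (0.535%) and 2 (0.107%), and at 16 months 93 (4.98%) and 110 (5.89%). The 3-month library was thus nearest to the rest and the 16-month library farthest.

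At 1 month the genes counted as higher included all 9 neutrophil markers and 4 of 4 erythroid markers compared, and at 1.5 months 8 of 8 chondrocyte markers. The marker sums given above include these same genes, so the sums and these counts are not separate observations. Retnlg, a neutrophil gene, measured 603, 5.77, 34.8 and 3.08 CPM in osteoblasts, and Col10a1, of hypertrophic chondrocytes, 7.2, 249, 13.4 and 0, with 25.1, 220, 75.3 and 0 in neutrophils. Genes of bone were counted as well. Spp1 (osteopontin) was higher at 1 month, at 8229 CPM against 3515, 3044 and 4571. In cells thinned to 3000 UMIs its means were 28.8, 13.6, 10.4 and 22.1 UMIs, which is under 2-fold, and the 6 osteoblasts of 1 month with exactly 2 Ifitm5 UMIs held 46298 CPM of Spp1. Also higher at 1 month was Phgdh, the entry enzyme of serine synthesis, at 110 CPM against 48.2, 34.2 and 28.9. At 1.5 months Bglap3, Mgp, Fn1 and Fmod were counted as higher. Bglap3 measured 4736 CPM there against 1451, 3605 and 95.5, and its 16-month level was low in other cells of that library too, at 0 CPM in neutrophils and 0.208 in Adipoq stromal cells against 13.8, 95.3 and 24.4 in the younger stromal cells. Fmod measured 111, 190, 58.5 and 19.6 CPM in osteoblasts and 41.5, 148, 25.7 and 17.6 in Adipoq stromal cells, so both classes were highest at 1.5 months.

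At 16 months many of the counted genes also stood apart in other cells of that library. When genes that were 2-fold apart in the same direction in its neutrophils or its Adipoq stromal cells were left out, 24 higher and 8 lower genes remained. Lars2 and Gm42418, at 441 and 10305 CPM against at most 11.8 and 299 in the younger osteoblasts, were also high in the neutrophils of that library, at 740 and 12215, and Twist1, at 237 CPM against 41.7, 45.7 and 67.2, was higher in the Adipoq stromal cells, at 110 against 28.4, 43.7 and 31.5. For such genes the library and the age cannot be told apart. Alpl measured 516, 484, 524 and 221 CPM, a log2 ratio of -1.20 of the 16-month value over the other 3 taken as a mean, and after thinning it was detected in 64.4%, 67.6%, 68.9% and 42.0% of osteoblasts, against 6.35%, 10.3%, 7.47% and 2.59% of neutrophils. It was lower in the Adipoq stromal cells as well, at 291, 147, 77.2 and 40.9 CPM. Serpinh1, the collagen chaperone HSP47, measured 4319, 4577, 4191 and 2180 CPM in osteoblasts and 1737, 2256, 1709 and 807 in Adipoq stromal cells.

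Among the 24 genes that remained higher were several of matrix and signalling. Named after their values were seen, the mitochondrial gene mt-Nd4, the ribosomal protein genes Rpl15 and Rpl30, and Prrc2c remained as well. In Adipoq stromal cells mt-Nd4 stood at 0.97 on the log2 scale, just under the 2-fold limit, against 1.11 in osteoblasts. Prrc2c stood at 1.33 in osteoblasts, 0.97 in neutrophils and 0.95 in Adipoq stromal cells. Bmp1, the protease that trims procollagen, measured 137, 139, 123 and 499 CPM in osteoblasts and 91.5, 104, 81.7 and 114 in Adipoq stromal cells. Vdr, the vitamin D receptor, measured 47.1, 66.9, 93.9 and 141 CPM, Bmp3 68.2, 106, 132 and 211, and Ptprz1, a receptor phosphatase also found in osteocytes, 25, 42.1, 48.8 and 123. For these 3 genes the order of the libraries followed age, without replicates that could give its error. All 3 were also counted as lower in the 1-month library. The proteoglycan Omd measured 89.5, 41.6, 35.2 and 123 CPM, so its 1-month value lay closer to the 16-month value, and the cadherin Fat3 36.5, 39.9, 55.7 and 102. Chosen after its values were seen, the MHC class I gene H2-D1 measured 388, 462, 1030 and 1782 CPM. Of the 8 that remained lower, Bambi, also chosen after its values were seen, a decoy receptor of the TGF-beta family, measured 350, 657, 448 and 232 CPM.

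The genes that define the cells were less far apart at 16 months. Relative to the mean of the other libraries, the 16-month library stood at 0.55 on the log2 scale for Col1a1, 0.64 for Col1a2, -0.53 for Car3, 0.78 for Phex, 0.23 for Ibsp, -0.29 for Sp7 and 0.89 for Runx2, and none of these passed the 2-fold limit; the median gene stood at -0.16. Phex measured 66.9, 129, 102 and 171 CPM and Runx2 77.7, 80.3, 100 and 160. Phex was counted as lower in the 1-month library. Ifitm5, which the gate required, measured 1141, 826, 976 and 572 CPM and was lowest at 16 months. None of 21 genes of the secretory pathway was counted at any of the 4 ages, and of 19 collagen processing genes Bmp1 was higher and Serpinh1 and Loxl2 lower at 16 months. Handling stress genes were higher at 16 months for Fosb, Jun and Egr1, 3 of the 10 compared. The same genes were higher in the neutrophils of that library, with log2 ratios of 1.95, 1.42 and 2.06 against 1.23, 1.04 and 1.24 in osteoblasts, and the median mitochondrial share of osteoblasts was 3.84% there against 1.96%, 2.38% and 2.34%.

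**Figure D4:**
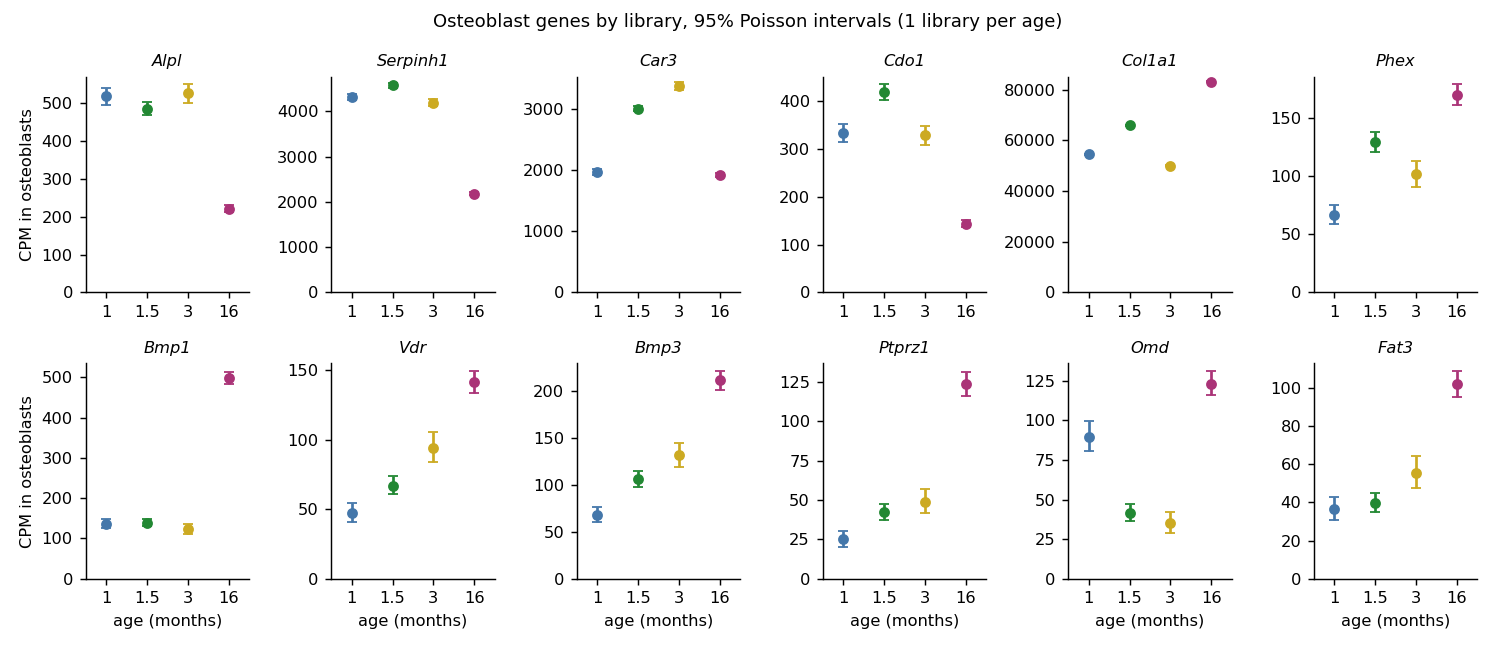
CPM of 12 genes in the summed osteoblasts of each library against age in months, with 95% Poisson intervals that cover counting error only and 1 library per age. Alpl, Serpinh1 and Cdo1 are lowest at 16 months and Bmp1, Vdr, Bmp3, Ptprz1 and Fat3 highest, while Car3 at 16 months (1928 CPM) matches its 1-month value (1977).

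Osteoblasts also differed among themselves. Thinned to 3000 UMIs (222, 373, 264 and 288 cells), the 15 genes with the highest ratios of variance to mean, ranked by the lowest of the 4 libraries, were Bglap, Spp1, Bglap2, Col1a1, Col1a2, Cst3, Sparc, Malat1, Col2a1, Ibsp, Mt1, Mt2, Nupr1, Fos and Serpine2. A ratio near 1 would be counting error alone, and that of Spp1 was 146, 203, 93.1 and 127. The 10% of osteoblasts with the most Spp1 held 62.7%, 79.3%, 81.2% and 69.4% of all Spp1 UMIs. At the other end, no Spp1 UMI was found in 17.1%, 16.4%, 44.7% and 22.6% of the osteoblasts; since 57.1%, 86.2%, 49.1% and 64.1% of neutrophils had 1, detection of Spp1 in single cells was near the background and only its high values set cells apart. Ibsp was more even, with 38.9%, 33.8%, 27.1% and 28.1% of its UMIs in the top 10% of cells. Mt1, a metallothionein, had a median of 0, 5, 3 and 2 UMIs per thinned osteoblast.

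Ranking the osteoblasts of each library by osteocalcin and dividing them into 3 equal sets gave 74, 124 or 125, 89 and 96 or 97 cells per set. The low sets had median osteocalcin of 257, 466, 333 and 315 per 10000 and the high sets 1853, 2618, 2387 and 1533. With Bglap and Bglap2 taken out of the totals, 1 of 2129 genes (0.047%), Bglap3, was at least 2-fold higher in the high set in each library and 16 (0.752%) were lower. Bglap3 is the neighbouring copy and can share reads with the ranked genes. The lower genes included Acan, Sgk1, Col6a1, Fmod, Col6a2, Col12a1, Ctgf, Timp3, Spp1, Serpine2, Postn, Col6a3, Wif1, Cp and Tnc. Spp1 measured 14360, 8456, 7542 and 9381 CPM in the low sets and 4446, 896, 1759 and 3232 in the high sets. Tnc (tenascin C), which the trabecular osteogenic cells also carry, measured 119, 278, 673 and 543 CPM against 18.7, 68.1, 34.6 and 84.2, and Wif1 227, 341, 349 and 151 against 81.1, 76.6, 28.5 and 56.6. The chains of type VI collagen were low together, with Col6a1 at 153, 344, 151 and 84.1 CPM in the low sets and 45.4, 166, 42.7 and 18.8 in the high sets. Col1a1 went the other way, with log2 ratios of 0.81, 0.51, 1.26 and 0.76, but passed the limit in 1 library only. Alpl had ratios of -0.29, -0.15, -0.75 and -0.33, and Phex of 0.86, 0.03, -0.02 and -0.88, with no common direction. Cells of the high sets were also deeper, with median UMIs of 21143, 21261.5, 14331 and 33087.5 against 14980.5, 13233, 8524 and 20569; the part of depth in these differences was not tested. Genes of other cell types were lower in the high sets as well: the median log2 ratio was -1.004 over 8 chondrocyte markers, -0.83 over 3 marrow stromal markers and -1.68 over 2 late progenitor genes, against -0.16 over all genes, and the part of such cells or their RNA was not tested.

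**Figure D5:**
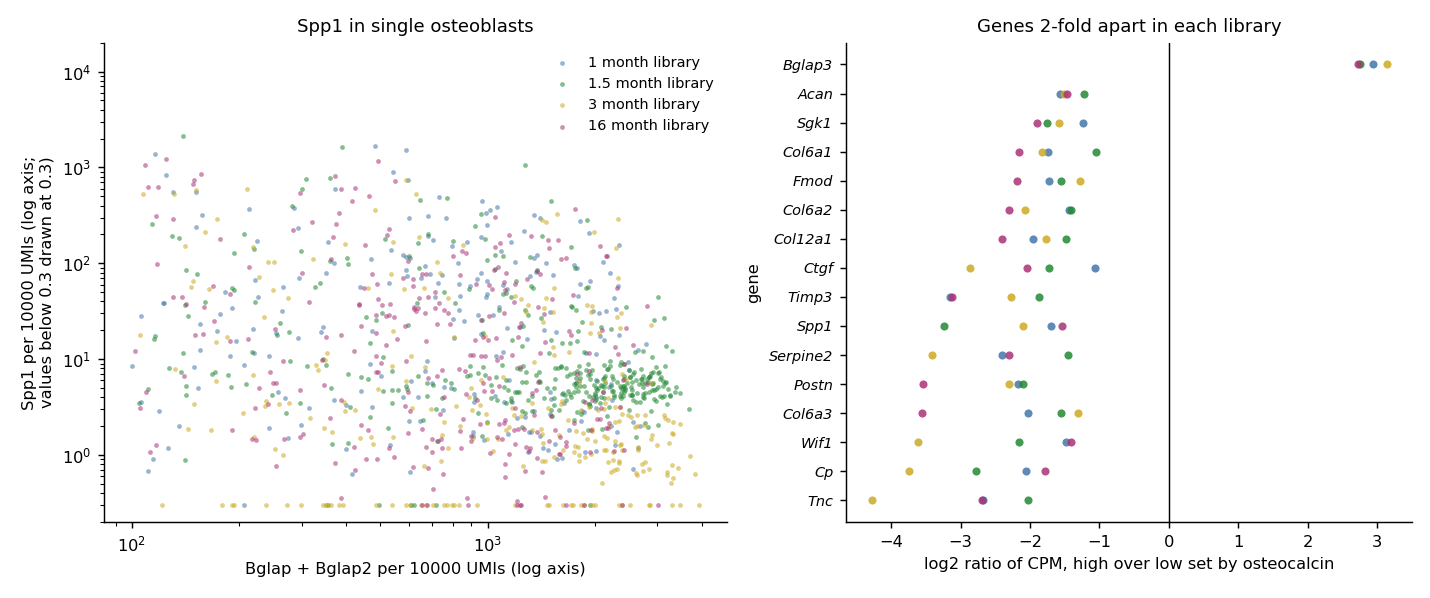
Left, Spp1 against Bglap plus Bglap2 per 10000 UMIs (both log axes, Spp1 below 0.3 drawn at 0.3), 1 point per osteoblast, coloured by library; right, log2 ratio of CPM in the high over the low set by osteocalcin for genes at least 2-fold apart in each library. High Spp1 values are most frequent at low osteocalcin, and Bglap3 is the 1 gene above 0.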

How the data were processed

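Endosteal marrow cells were sorted for Td and run as 1 10x Genomics library per age. Per the labels, the authors used Cell Ranger 3.0.2, Seurat 2 and the mm10 build; the deposited matrices hold raw UMI counts per gene and cell. Barcodes were kept if 200 to 6000 genes were detected and mitochondrial transcripts made up no more than 5%, and classes were gated on marker counts; Adipoq stromal cells needed at least 8 Adipoq and 20 Cxcl12 UMIs per 10000. UMIs were summed per class and library for each of the 26600 genes in all 4 tables. They were scaled to CPM by the total over all genes of that library, 31054 at 16 months and 27999 in the others. A value below 3 UMIs was set to 3 for ratios. With 1 library per age no test was run; intervals are exact Poisson for CPM and Clopper-Pearson for shares, at 95%, and libraries with more summed UMIs have narrower ones. Genes entered comparisons between classes at a mean of at least 20 CPM in either class, and between ages at 50 CPM over the libraries. The members, the gates and the 27 gene lists were chosen with earlier results of these data known. Genes were named if they were on these lists, if they were among the 10 farthest apart in each direction against late progenitors or osteocytes, the 5 farthest apart per library and direction between ages, or the 15 most variable between osteoblasts, or if a gate used them. Those farthest apart needed at least 100 CPM. Genes named outside this rule are marked in the text or belong to a set the text describes; results for a few genes are not reported here. The osteocyte gate fixed at first held 1 to 4 cells per library and was replaced after the data were seen. Scrublet (scanpy 1.11.5, expected doublets 8%) called 0, 98, 57 and 6 barcodes and did not work at 1 and 16 months, so no doublets were removed; it called 0, 14, 5 and 0 osteoblasts. The count rules were tested on simulated data. Gene positions are from GENCODE M21 on GRCm38. Python 3.11.15, numpy 2.4.6, pandas 2.3.3 and scipy 1.17.1 were used.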

Additional observations from a re-analysis of the deposited data

How the results depend on the processing

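The share of osteoblasts among gated mesenchymal cells depended on the gate. With osteocalcin at 50 or more per 10000 it was 33.7%, 19.6% and 36.1% at 1, 1.5 and 3 months, and at 200 or more it was 26.2%, 15.8% and 29.2%. With at least 4 Ifitm5 UMIs it was 15.8% at 1.5 and 7.27% at 16 months, and after thinning to 3000 UMIs 13.7% and 4.91%. Without Adipoq stromal cells in the denominator, an alternative added after the data were seen, the shares were 38.1%, 40.0%, 57.1% and 57.0%. Against late progenitors, a fold of 1.5 gave 1420 lower genes, a fold of 3 gave 82 higher and 407 lower, no filter on low values gave 1507 lower, and totals without the gate genes and type I collagen gave 206 higher; leaving out 1 library gave 135 to 157 higher and 759 to 879 lower. Against Dmp1 Phex osteocytes, a comparison added after the data were seen, a fold of 1.5 gave 103 higher and 365 lower genes, a fold of 3 gave 3 and 71, totals without those genes gave 55 higher, and no filter gave 6382 lower, most with so few UMIs that the value of 3 decided the ratio. Leaving out 1 library gave 35 to 76 higher and 178 to 308 lower. There were 60 higher without the 1.5-month library, and 76 higher and 308 lower without the 16-month library. Without the 1-month or the 3-month library, 35 and 39 were higher and 178 and 183 lower. Fewer libraries had to pass in each of these cases. At 16 months, a fold of 1.5 gave 240 higher and 350 lower genes, a fold of 3 gave 22 and 48, no filter gave 765 and 328, and leaving out genes apart in neutrophils or Adipoq stromal cells gave 24 and 8; leaving out another library gave 105 to 124 higher and 108 to 128 lower. The other 74 alternative values of these shares and counts stayed within counting error or 1.5-fold of the reported ones. Spp1 at 16 months, not counted as apart, changed sign from -0.11 on the log2 scale to 0.31 as a mean over cells, 0.30 after thinning and 0.10 with a mitochondrial limit of 10%. The median gene against osteocytes went from -0.17 to 0.02 without the gate genes and type I collagen in the totals. No paired analysis was possible because each age has 1 library, all numbered 1, and no test was run. The planned comparison with osteocytes gated on Mepe was not run, since that gate held 1 to 4 cells per library. Genes under 20 CPM, such as Sost and Phospho1 in osteoblasts, were too shallow to rank.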
